A study of Eucalyptus globulus and Eucalyptus grandis with 36 samples.

Results

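Ribosomal protein genes of eucalypt stems are described here across temperature, CO2 and species. They were taken by description: a gene counts when its deposited annotation contains the words ribosomal protein and names neither a kinase nor a methyltransferase. Of the 11827 gene identifiers in the 8 deposited tables, 42 met this rule, under 33 distinct descriptions. The tables hold only genes that the authors selected as changed, so all 42 are present because at least 1 comparison selected them, and ribosomal protein genes that never passed are not among them. Of the 42 genes, 35 also carry the gene ontology term for a structural constituent of the ribosome in the files.

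Ribosomes join amino acids into proteins in every cell, and each is built from a small and a large subunit of RNA and protein. Plant cells hold 3 kinds: those of the cytosol, which make most proteins, and those of plastids and mitochondria, which resemble bacterial ribosomes and translate the few messages encoded by the organelles themselves. A plastid genome carries a part of its own ribosomal proteins, and nuclear genes supply the rest of them as well as all cytosolic ones. Genes of cytosolic ribosomal proteins are usually present as several near-identical copies and are most active in growing tissue.

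Stem RNA was sequenced from seedlings of Eucalyptus globulus and Eucalyptus grandis, grown from clonal seed for 6 months to about 25 cm and then kept for 35 days in chambers lit for 10 h daily at 280 µmol photons per square metre and second. The design text gives 35 days as the plants' age instead. The 36 samples form 12 groups of 3: each species at 10, 20 or 30 °C (chambers at 10 to 12, 22 to 24 and 33 to 35 °C), in ambient CO2 (390 ppm in the protocols, 400 ppm in the design text) or in CO2 raised to 700 ppm. Plants at 20 °C in ambient CO2 were the control of each species, and no group carried a transgene or any agent other than temperature and CO2. Values came for 11 groups; the E. grandis group at 20 °C with elevated CO2 was not analysed here. Treatments were given by chamber, so chamber and treatment cannot be told apart. Nothing in the labels says if a group's 3 samples came from separate plants, so the authors' p-values measure the spread between samples that may be technical repeats.

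Each value is the authors' group value, a normalised level on a log2 scale with a floor of 0, with no SD, n or p-value per gene, and the sequencing depth is unknown. Changed, higher and lower are used of genes in the authors' selection (corrected p of 0.05 in their test) whose group values lie at least 1 log2 unit, or 2-fold, apart. Percentages for the background are shares of the same 11827 identifiers. Genes under one description may share reads as near-identical copies, so the value of any one of them is uncertain. No source says that levels were scaled to gene length, so a deposited value may also depend on how long a gene is and cannot be taken to rank genes by their number of messages. In whole stems, fewer cells of a type and less RNA per cell cannot be told apart. All comparisons with a species' 20 °C control share that control.

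By the words of their descriptions, 16 members were of cytosolic type (40S, 60S, or a name with the suffix e of archaeal and eukaryotic subunits, in 3 cases beside a bacterial name), 1 was of bacterial type (a 30S protein, Eucgr.A01406) and 25 did not say. None of the 42 descriptions contains chloroplast, plastid or mitochondrion. Sorted by subunit name, 18 were cytosolic, 5 bacterial in type (the 30S protein and 4 genes described as S21), 15 had a name shared by both kinds of ribosome and 4 named only a domain. Of the shared names, 12 are also those of plastid-genome subunits (S2, S3, S4, S7, S8, S12, S18, L2, L14 or L22). That grouping was made after the values had been seen, and a name does not show in which ribosome a protein works.

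Only 10 of the 42 genes had values in both species, 19 had values in E. globulus alone and 13 in E. grandis alone. A total of 32 genes stood in 1 table and 10 in several. A single table therefore decides most of what can be said of a member, and a gene missing from a table was not selected there.

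**Figure D1:**
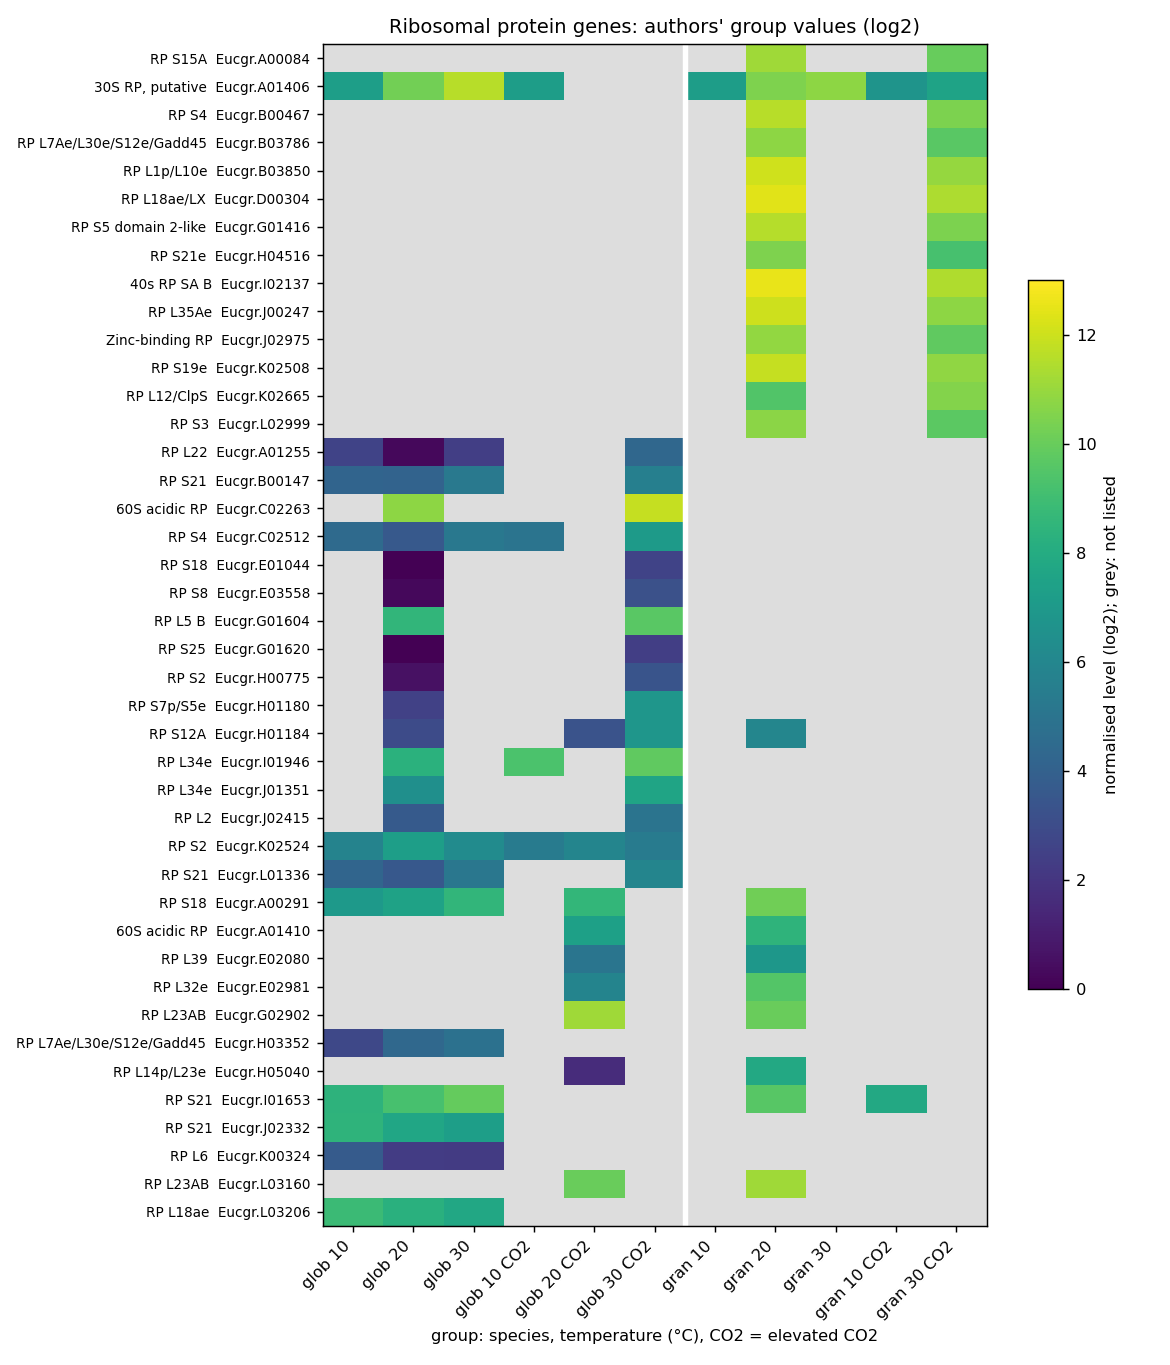
Authors' group values (log2, colour scale from 0 to 13) of the 42 ribosomal protein genes, one row per gene, in 6 groups of E. globulus and 5 of E. grandis; grey cells are groups in which the gene is not listed. RP stands for ribosomal protein, and the 13 genes that were lower in hot E. grandis with elevated CO2 stand in the upper block, nearly all with values for that table alone.

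The largest set of lower members appeared in E. grandis at 30 °C with elevated CO2. There 13 of the 42 genes (31.0%) were lower than in the E. grandis control, against 3.43% of all identifiers, and 1 (2.38%) was higher, against 4.89%. The lower genes cover both subunits and all had high deposited values: their control levels ran from 10.47 to 12.56 with a median of 11.53, where the median of all 984 genes in that table was 7.60. Among all 406 lower genes of the comparison, 162 (39.9%) had a control level of at least 10. Of the 13 genes, 12 stood in no other table, so they are among the 42 only through this selection. Both shares are of genes selected in at least 1 comparison, not of all ribosomal protein genes or of all genes.

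Small-subunit names, the 30S gene included, made up 7 of the 13. The 40S protein SA B (Eucgr.I02137), a component of the mature small subunit, went from 12.56 in the control to 11.44. S19e (Eucgr.K02508), which in yeast and humans is needed to mature the small subunit, went from 11.87 to 10.85. S15A (Eucgr.A00084) went from 11.15 to 9.97 and S21e (Eucgr.H04516) from 10.47 to 9.22. S4 (Eucgr.B00467) went from 11.62 to 10.45, and S3 (Eucgr.L02999), which lines the channel where messenger RNA enters, from 10.77 to 9.70; S3 and S4 are names shared with plastid-encoded subunits, though the values do not tell which kind these are. In each of these 6 genes the hot, high-CO2 group lay about 1 log2 unit under the control.

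Large-subunit genes and genes whose name does not give the subunit moved by similar amounts. L18ae/LX (Eucgr.D00304) went from 12.40 to 11.40 and L35Ae (Eucgr.J00247) from 12.03 to 10.81. The L1p/L10e gene (Eucgr.B03850), of the family that forms the mobile stalk near the exit site of transfer RNA, went from 12.04 to 10.92. The L7Ae/L30e/S12e/Gadd45 gene (Eucgr.B03786) belongs to a family with members in both subunits that binds kinked RNA, and went from 10.79 to 9.66. A zinc-binding ribosomal protein (Eucgr.J02975), from 10.90 to 9.82, and an S5 domain 2-like protein (Eucgr.G01416), from 11.53 to 10.42, completed the set; the subunit of these 3 is not given by the name.

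These shifts were small and close together. Without the 30S gene, the other 12 were lower by 2.00- to 2.37-fold in the authors' deposited table, with a median of 2.18-fold, and all of them lay under 3-fold, as did 50.5% of the 406 lower genes in the authors' deposited table. With 2.00-fold, L18ae/LX stood just inside the limit by the authors' deposited table; genes just outside it are not listed. The 30S gene Eucgr.A01406 stood apart, from 10.49 to 7.56, or 7.61-fold lower by the authors' deposited table. The median log2 difference of the 13 genes was -1.12 in the authors' deposited table, against -1.54 for all lower genes. By the words of the descriptions, 7 of the 13 were cytosolic, 5 did not say and 1 was the bacterial-type gene. The 7 include L1p/L10e (Eucgr.B03850), whose name also gives a bacterial form. By subunit name, 7 were cytosolic, 3 had a shared name, 2 named only a domain and 1 was bacterial in type.

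The single higher gene of that comparison was described as L12/ClpS (Eucgr.K02665), at 9.49 in the control and 10.60 in hot, high-CO2 stems. ClpS-type proteins deliver substrates to the Clp protease, and this gene carries no ribosome term in the files, so it falls under the rule by its wording. In the authors' deposited table its value was 2.15-fold higher.

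In E. globulus more members were higher than lower under the same treatment. At 30 °C with elevated CO2, 15 of the 42 members (35.7%) were higher than in the E. globulus control, against a background of 29.9%, and 1 (2.38%) was lower, against 16.2%. The share of higher members lay near the background. Both member shares count the 13 members with values in E. grandis alone as not called. None of the 15 was among the 13 lower genes of E. grandis. The overlap over all identifiers was not counted, so the lack of shared genes is not read as a result. Neither set was listed in the other species' table for this treatment, so no gene was measured as moving in opposite directions.

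The sets also differed in their control values, which may depend on gene length and come from different genes. The 15 higher genes of E. globulus had a median control level of 3.58, against 5.65 for all higher genes of the comparison, and 11 of the 15 lay under 5, as did 43.4% of all higher genes. Those 11 genes reached 2.40 to 7.11 in the hot, high-CO2 group. The 13 lower genes of E. grandis had no control level under 10. All lower genes of that comparison had a median of 9.14, with 11.6% under 5. Control levels also went with direction, since all lower genes of the E. globulus comparison had a median of 8.15. Species and direction of the call therefore cannot be told apart in these levels. By the words of their descriptions, 4 of the 15 were cytosolic and 11 did not say. The 4 include S7p/S5e (Eucgr.H01180), whose name also gives a bacterial form. By subunit name, 4 of the 15 were cytosolic, 8 had a shared name, 2 were bacterial in type and 1 named only a domain.

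Several of the low genes bear names used by plastid genomes. S7p/S5e (Eucgr.H01180), a protein of the head of the small subunit, went from 2.50 to 6.85, and S12A (Eucgr.H01184), which in bacteria helps the decoding site read messenger RNA, from 2.99 to 6.85. In the authors' deposited table they were 20.3-fold and 14.6-fold higher. The genes are neighbours in the files' annotation, with ends 14054 bases apart (build not given in the sources used here). L22 (Eucgr.A01255), a protein beside the tunnel through which new chains leave, went from 0.26 to 4.34, or 16.9-fold higher in the authors' deposited table. Its control lay near the floor.

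S8 (Eucgr.E03558), an early binder of small-subunit RNA, went from 0.29 to 3.25, and one S2 gene (Eucgr.H00775) from 0.60 to 3.39. L2 (Eucgr.J02415), which sits near the site of peptide bond formation, went from 3.69 to 4.98. One S18 gene (Eucgr.E01044) was listed at 0 in the control and at 2.60 in the treated group, so no fold is given. In all, 7 of the 15 higher genes had such a name, all 7 with control levels under 5. The 6 without a 0 were higher by 2.45- to 20.3-fold in the authors' deposited table, with a median of 11.2-fold. L22, S8 and S2 (Eucgr.H00775) had controls of 0.26, 0.29 and 0.60, near the floor, so their folds and this median are uncertain. The only lower member of the comparison, the S2 gene Eucgr.K02524, also had such a name and went from 7.27 to 5.42. In E. grandis under this treatment, 2 genes with such a name were lower and 0 higher.

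The other 8 higher genes were mixed. An S4-motif RNA-binding protein (Eucgr.C02512) went from 3.65 to 7.11, and the S21 genes Eucgr.L01336 and Eucgr.B00147 from 3.58 to 5.93 and from 4.14 to 5.60. S25 (Eucgr.G01620), a small-subunit protein of cytosolic ribosomes, was listed at 0 in the control and at 2.40 in the treated group. Only 4 genes had a control level of 5 or more. Both L34e genes were among them, at 8.29 and 9.85 (Eucgr.I01946) and at 6.46 and 7.59 (Eucgr.J01351). So were L5 B (Eucgr.G01604), of a family that carries 5S ribosomal RNA into the large subunit, at 8.55 and 9.68, and a 60S acidic protein (Eucgr.C02263), of the stalk that recruits elongation factors, at 10.78 and 11.83. These 4 were higher by 2.07- to 2.94-fold in the authors' deposited table, and the 9 genes under 5 without a 0 were higher by 2.45- to 20.3-fold, with medians of 2.19-fold and 7.80-fold. The 9 include L22, S8 and the S2 gene Eucgr.H00775, with controls near the floor, so the gap between these medians is not read as a result. Over the 13 higher members without a 0, the median log2 difference was 2.35 in the authors' deposited table, against 1.83 for all higher genes.

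Genes of the green stem tissue moved in the same comparison. Of 35 marker genes of chlorenchyma, the photosynthetic cells under the stem surface, 18 were higher and 0 lower in E. globulus at 30 °C with elevated CO2 (all identifiers: 29.9% higher and 16.2% lower), and 6 were higher and 0 lower in E. grandis (4.89% and 3.43%). Of 20 further genes named like products of the plastid genome, a list made after the values had been seen, 8 were higher and 1 lower in E. globulus, against the same 29.9% and 16.2%. A photosystem II reaction center protein C (Eucgr.B02132) went from 3.26 to 6.27 with a fold of 8.05 in the authors' deposited table. In E. grandis 0 were higher and 1 lower. The part of these genes' tissue in the members' values was not tested.

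**Figure D2:**
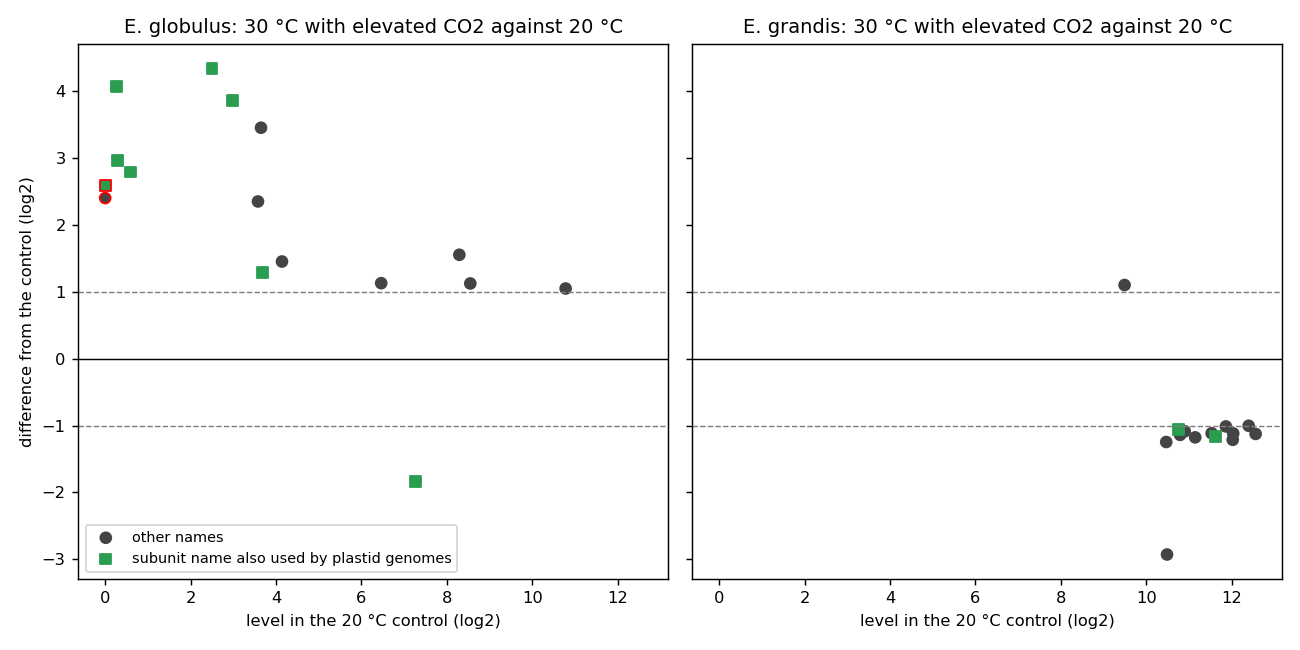
Difference from the control (log2, vertical axis) against the level in the 20 °C control (log2, horizontal axis) for ribosomal protein genes listed at 30 °C with elevated CO2, one point per gene, E. globulus at left and E. grandis at right. Dashed lines mark the 2-fold limit, squares are genes named like plastid-genome subunits, and red edges mark the 2 genes at 0 in the control; higher genes of E. globulus lie mostly at control levels under 5, and lower genes of E. grandis all lie above 10.

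Temperature alone, in ambient CO2, moved few members of E. globulus. At 30 °C 6 members (14.3%) were higher than in the control, against a background of 22.7%, and 0 were lower, against 14.8%. At 10 °C 2 (4.76%) were higher, against 17.1%, and 3 (7.14%) lower, against 14.4%. Between 30 and 10 °C, 5 (11.9%) were higher at 30 °C, against 23.9%, and 3 (7.14%) lower, against 18.4%. All 6 of these shares lay under their background. However, the members include 13 with values in E. grandis alone, which count as not called in every E. globulus share. How many of all identifiers lack an E. globulus value was not counted, so the gaps to the background are not read as a result. Both higher members at 10 °C, L22 and L6, had low values in all 3 temperature groups, and no higher member is left there when genes are dropped whose higher group lay under the 25th percentile of the table's values. Tissue markers moved in these comparisons too: at 30 against 20 °C, 13 of 35 chlorenchyma genes were higher and 1 lower, 8 of 50 xylem genes higher and 21 lower, and 0 of 15 genes of dividing cells higher and 8 lower. At 10 °C, 5 chlorenchyma genes were higher and 13 lower, and 19 xylem genes higher and 1 lower. Between 30 and 10 °C, 27 chlorenchyma genes were higher and 6 lower, 1 xylem gene higher and 26 lower, and 0 genes of dividing cells higher and 7 lower. Their part in the members' values was not tested. Cold and elevated CO2 together, set against the same control, gave 2 higher and 2 lower members (4.76% each), against 15.8% and 12.7%. For 3 members with values in both cold groups of E. globulus, the group in elevated CO2 differed from the one in ambient CO2 by -0.03 (Eucgr.A01406), 0.51 (Eucgr.C02512) and -0.39 (Eucgr.K02524) log2 units, across tables and without a test.

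The 30S gene Eucgr.A01406 had the most calls, 8 over both species. In E. globulus its level was 7.29 at 10 °C, 10.22 at 20 °C and 11.61 at 30 °C in ambient CO2, and 7.26 at 10 °C in elevated CO2. In E. grandis it was 7.24, 10.49 and 10.79 at 10, 20 and 30 °C in ambient CO2, and 6.73 at 10 °C and 7.56 at 30 °C in elevated CO2. Every cold group lay near 7 in both species, and every group at 20 or 30 °C in ambient CO2 lay above 10. The hot E. grandis group in elevated CO2 stood with the cold groups, 3.23 log2 units below hot E. grandis in ambient CO2, a difference between separate tables that the authors did not test.

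In the authors' deposited table this gene was 7.64-fold lower at 10 °C in E. globulus and 9.47-fold lower in E. grandis. With elevated CO2 at 10 °C it was 7.80-fold and 13.5-fold lower in the authors' deposited table, in that order of species. From 10 to 30 °C it was 20.0-fold higher in E. globulus and 11.7-fold higher in E. grandis in the authors' deposited table. Between 20 and 30 °C it was 2.61-fold higher in E. globulus, while the 1.23-fold difference in E. grandis lay under the limit in the authors' deposited table. The gene carries no ribosome term in the files, and it was not listed for E. globulus at 30 °C with elevated CO2, so hot, high-CO2 stems have no value for it in that species.

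Genes described as S21, a bacterial-type small-subunit protein that lies near the start site of messages, did not move together. Eucgr.I01653 was at 8.42, 9.20 and 9.93 in E. globulus at 10, 20 and 30 °C. Eucgr.J02332 had the reverse order, at 8.47, 7.71 and 7.26. From 10 to 30 °C the first was 2.85-fold higher and the second 2.30-fold lower by the authors' deposited table. The genes Eucgr.L01336 (4.25, 3.58 and 5.15) and Eucgr.B00147 (4.19, 4.14 and 5.23) were highest at 30 °C. In E. grandis, Eucgr.I01653 went from 9.60 in the control to 7.85 at 10 °C with elevated CO2, or 3.37-fold lower in the authors' deposited table.

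One S2 gene, Eucgr.K02524, was highest in the E. globulus control. Its level was 7.27 there, 5.82 at 10 °C and 6.29 at 30 °C in ambient CO2, and 5.43, 5.91 and 5.42 at 10, 20 and 30 °C in elevated CO2. At each temperature the value in elevated CO2 lay below that in ambient CO2. The gaps at 10 and 30 °C, of -0.39 and -0.87 log2 units, were under 2-fold, between separate tables and not tested. In the authors' deposited table it was 2.72-fold lower at 10 °C, 3.57-fold lower at 10 °C with elevated CO2 and 3.58-fold lower at 30 °C with elevated CO2. At 30 °C in ambient CO2 the difference of 1.96-fold in the authors' deposited table lay just outside the limit. The second S2 gene, Eucgr.H00775, was higher at 30 °C with elevated CO2, as given above, so the 2 genes with this name differed in direction within one comparison.

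CO2 alone at 20 °C changed 1 member in E. globulus. That was Eucgr.K02524, 2.56-fold lower in the authors' deposited table, which makes 1 lower member (2.38%) against a background of 1.72% and 0 higher against 3.31%. An S18 gene, Eucgr.A00291, was at 7.48 in ambient and 8.59 in elevated CO2 at 20 °C, values from separate tables. It was not selected by the authors for that comparison.

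Further members moved with temperature in E. globulus. L22 (Eucgr.A01255) was lowest in the control, at 0.26, and was at 2.64 at 10 °C and 2.39 at 30 °C; it was 5.18-fold and 4.38-fold higher there in the authors' deposited table, from a control near the floor. The S4-motif gene Eucgr.C02512 had a similar low at 20 °C, with 4.52, 3.65 and 5.20 at 10, 20 and 30 °C and 5.02 at 10 °C with elevated CO2. S18 (Eucgr.A00291) was at 6.98, 7.48 and 8.56, and an L7Ae/L30e/S12e/Gadd45 gene (Eucgr.H03352) at 2.83, 4.41 and 4.83. Both were highest at 30 °C, while L18ae (Eucgr.L03206), at 8.88, 8.25 and 7.77, and L6 (Eucgr.K00324), at 3.71, 2.33 and 2.24, were highest at 10 °C. The L34e gene Eucgr.I01946 was at 9.34 at 10 °C with elevated CO2, or 2.07-fold higher than the control in the authors' deposited table.

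E. grandis showed few member changes outside the hot, high-CO2 group. At 10 °C in ambient CO2, 1 member (2.38%), the 30S gene, was lower, against a background of 2.0%, and 0 were higher, against 1.2%. At 30 °C in ambient CO2, 0 were higher, against 0.854%, and 0 lower, against 0.49%. From 10 to 30 °C 1 (2.38%), again the 30S gene, was higher, against 2.53%, and 0 were lower, against 1.45%. With elevated CO2 at 10 °C, 2 (4.76%), the 30S gene and the S21 gene Eucgr.I01653, were lower, against 9.2%, and 0 higher, against 3.91%. At 30 °C, 0 members were lower in ambient CO2 and 13 in elevated CO2. These calls come from 2 tables that share the control but were selected by unlike tests. The ambient calls were selected over 3 temperatures and the others between 2 groups, in E. globulus as well. The difference between the calls was not tested.

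**Figure D3:**
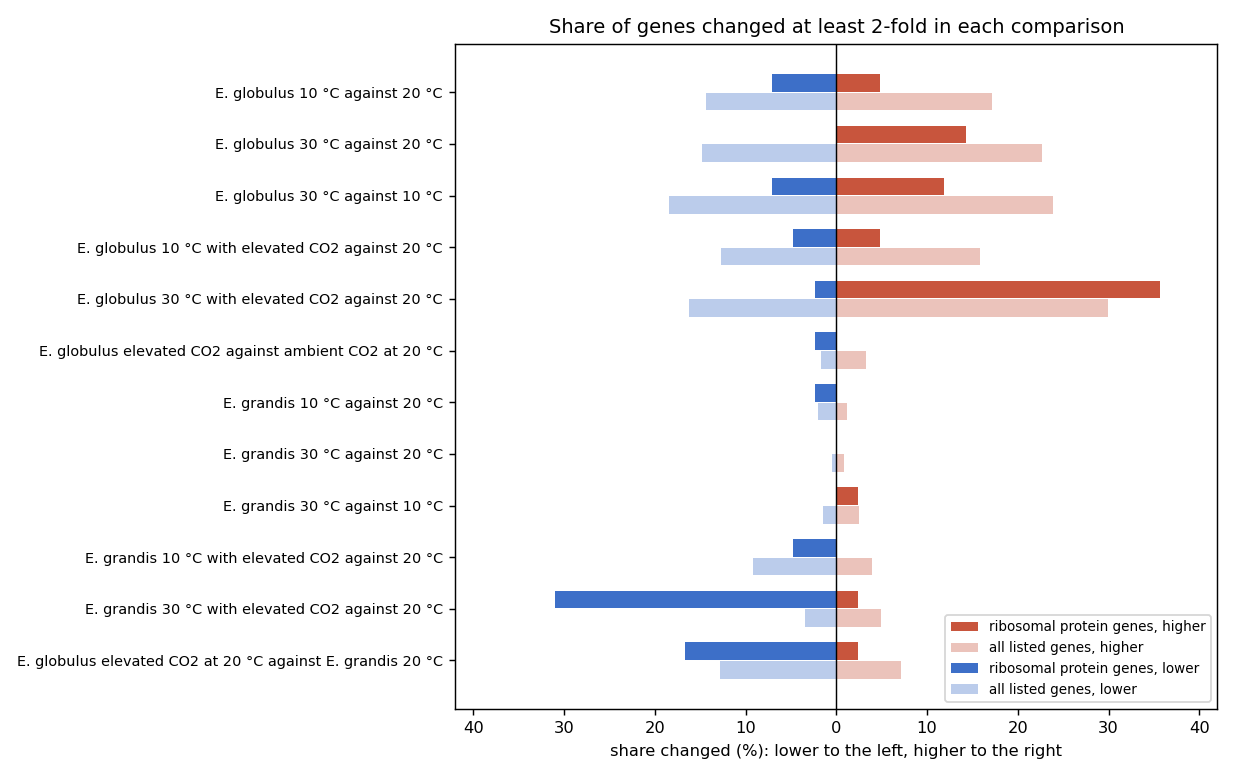
Share of genes called changed in each of the 12 comparisons (%, higher to the right, lower to the left), dark bars for the 42 ribosomal protein genes and pale bars for all 11827 listed identifiers. The lower share in E. grandis at 30 °C with elevated CO2, 31.0% against 3.43%, is the widest gap between a dark and a pale bar. Of the lower genes there, 12 are among the 42 only through that comparison.

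**Figure D4:**
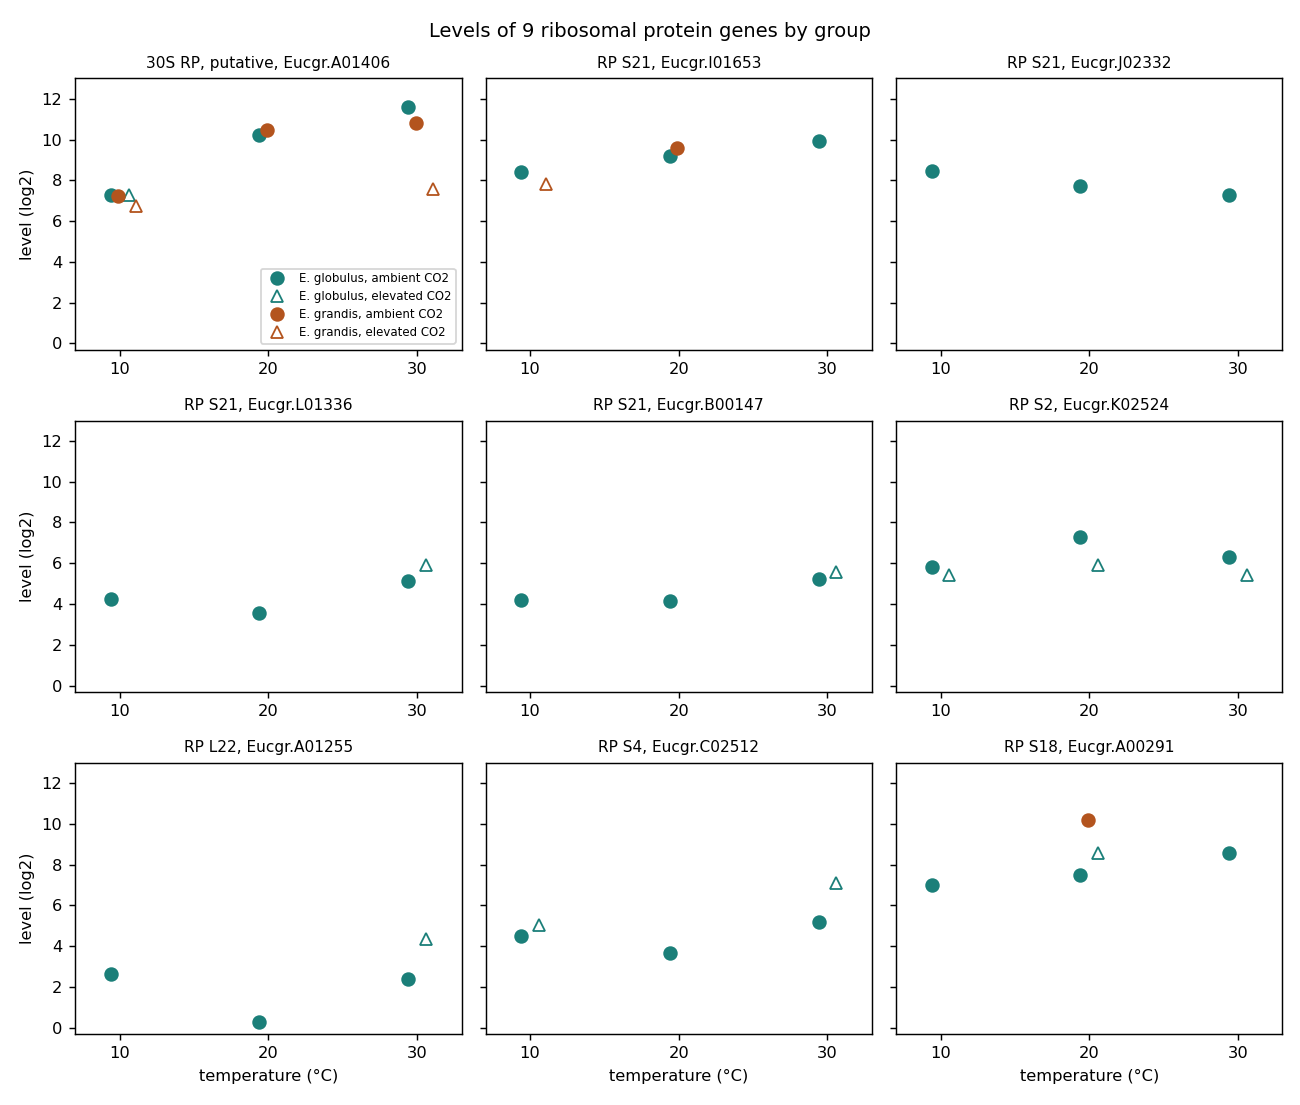
Authors' group values (log2, vertical axis) of 9 ribosomal protein genes by temperature (°C, horizontal axis), 1 value per group without error, filled circles for ambient and open triangles for elevated CO2; points are shifted sideways so that they can be told apart. The 30S gene lies near 7 in the cold in both species and at 7.56 in hot E. grandis with elevated CO2, and the S21 genes Eucgr.I01653 and Eucgr.J02332 run in opposite directions.

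The species themselves met directly in 1 table, which sets E. globulus at 20 °C and elevated CO2 against control E. grandis, so species and CO2 cannot be told apart in it. Both species are listed under 1 set of gene identifiers, and the rule that assigned the reads of each was not given in the sources used here. In any gap between the species, the assignment of reads and a difference in level therefore cannot be told apart. There 7 members (16.7%) were lower in E. globulus, against a background of 12.8%, and 1 (2.38%) was higher, against 7.11%. By the words of the descriptions, 3 of the 7 were cytosolic and 4 did not say, and the higher gene did not say. The 3 include L14p/L23e (Eucgr.H05040), whose name also gives a bacterial form. By subunit name, 4 of the 7 were cytosolic and 3 had a shared name, and the higher gene was cytosolic.

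The widest gap was that of L14p/L23e (Eucgr.H05040), of a family at the interface of the subunits, at 1.66 in E. globulus and 7.85 in E. grandis, or 72.7-fold lower in the authors' deposited table. L32e (Eucgr.E02981), a large-subunit protein, was at 5.85 and 9.54, or 12.9-fold lower in the authors' deposited table. S12A (Eucgr.H01184) was at 3.32 and 5.97, L39 (Eucgr.E02080), which lines the exit tunnel, at 5.06 and 6.86, and S18 (Eucgr.A00291) at 8.59 and 10.19. A 60S acidic protein (Eucgr.A01410) was at 7.41 and 8.44. Its end lies 30940 bases from that of the 30S gene in the files' annotation, and the 30S gene was not listed in this comparison.

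The 2 genes described as L23AB, of a family at the tunnel exit where factors bind the new chain, were mirrored. Eucgr.G02902 was at 11.14 in E. globulus and 10.03 in E. grandis, and Eucgr.L03160 at 10.03 and 11.13. In the authors' deposited table they were 2.16-fold higher and 2.15-fold lower, in that order. The 2 genes moved by nearly the same amount in opposite directions.

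Across separate tables, 4 members had values in both 20 °C controls. The E. grandis control was 0.27 log2 units above that of E. globulus for the 30S gene and 0.40 for S21 (Eucgr.I01653), both under 2-fold. S18 (Eucgr.A00291), with 2.72, and S12A (Eucgr.H01184), with 2.99, have an E. grandis value only because the table of both species selected them as lower in E. globulus, so that choice bears on the direction of their gaps. The authors did not test these pairs. At 10 °C in ambient CO2 the 30S gene was at 7.24 in E. grandis and 7.29 in E. globulus, and at 30 °C at 10.79 and 11.61, so its order between species differed with temperature within differences under 2-fold.

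Other genes of translation moved in several of the comparisons. In E. globulus with elevated CO2 at 20 °C, 1 of 9 genes described as initiation factors was higher and 3 were lower. Among all identifiers 3.31% were higher and 1.72% lower. At 10 °C in ambient CO2 the same 1 was higher and the same 3 lower, against 17.1% and 14.4%. The 3 lower genes (Eucgr.F03466, Eucgr.F03468 and Eucgr.F03469) share the SUI1-family description and may share reads. The higher gene, described as eukaryotic initiation factor 4A-III (Eucgr.E01181), had a control level of 0.78. Of the 9 genes, 1 was higher and 0 lower in E. grandis at 30 °C with elevated CO2, against 4.89% and 3.43%. In E. globulus 1 was higher and 1 lower at 30 °C with elevated CO2, against 29.9% and 16.2%. An SUI1-family factor (Eucgr.F00808), of the family that helps select the start codon, was higher in both, from 10.70 to 12.05 in E. grandis and from 10.38 to 12.22 in E. globulus. Another SUI1-family gene, Eucgr.F03469, was low in the cold in both species, at 3.57 in E. globulus and 3.23 in E. grandis at 10 °C, which the authors' deposited tables give as 21.6-fold and 7.06-fold lower than the controls. Of 6 elongation and release factors, 1 was higher in each species at 30 °C with elevated CO2 and 0 lower. In E. grandis this was an EFG/EF2 protein (Eucgr.D02023), which moves the ribosome along its message, from 9.97 to 11.36.

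Genes listed for ribosome assembly were split in the comparison with 13 lower members. The list was taken by words in the descriptions, RNA helicase and pseudouridine synthase among them, which do not show a part in ribosome assembly. Of 18 such genes, 2 were higher and 2 lower in E. grandis at 30 °C with elevated CO2, against 4.89% and 3.43% of all identifiers. In E. globulus 3 were higher and 2 lower, against 29.9% and 16.2%. Fibrillarin 2 (Eucgr.K00288), which methylates ribosomal RNA in the nucleolus, went from 12.66 to 11.52 in E. grandis, and a DEA(D/H)-box RNA helicase (Eucgr.B03365) from 10.53 to 9.47. The pseudouridine synthase genes Eucgr.B00079 and Eucgr.B00082 were higher, from 7.87 to 8.93 and from 7.27 to 8.32. The ribosome-associated membrane protein RAMP4 gene Eucgr.B03504, of a family at the protein-conducting channel of the endoplasmic reticulum, went from 4.67 to 7.67 in E. grandis and from 4.69 to 7.21 in E. globulus. Another RAMP4 gene, Eucgr.D01442, went from 10.04 to 8.88 in E. globulus. Of 8 aminoacyl-tRNA synthetases, which load transfer RNAs, 0 were called in either species there, as were 0 of 2 target of rapamycin genes.

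In the table of both species, which sets E. globulus at 20 °C and elevated CO2 against control E. grandis, calls differed between these lists. Of 9 initiation factors 5 were lower and 0 higher in E. globulus, and of 8 aminoacyl-tRNA synthetases 4 were lower and 1 higher. Both target of rapamycin genes were lower. Of 6 elongation and release factors 1 was higher and 1 lower. Of 18 genes listed for ribosome assembly 1 was higher and 3 lower, and of 3 RAMP4 genes 0 were called. Among the lower genes were a glycyl-tRNA synthetase (Eucgr.G02153) at 4.56 and 11.68 and a small GTP-binding initiation factor 2 (Eucgr.D01778) at 2.00 and 9.38. Among all identifiers, 12.8% were lower and 7.11% higher.

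Marker genes of stem tissue were listed for secondary xylem (50 genes), phloem (22), cork and epidermis (54) and dividing cells (15). In E. grandis at 30 °C with elevated CO2, where the 13 members were lower, 1 xylem gene was higher and 1 lower, 1 phloem gene higher and 0 lower, and 2 cork or epidermis genes higher and 1 lower. Of the genes of dividing cells 0 were called there, and among all identifiers 4.89% were higher and 3.43% lower. In E. globulus at 30 °C with elevated CO2, where 15 members were higher, 19 cork or epidermis genes were higher and 7 lower, 6 xylem genes higher and 8 lower, 4 phloem genes higher and 4 lower, and 1 gene of dividing cells higher and 6 lower. Among all identifiers 29.9% were higher and 16.2% lower in it. Since markers that were not selected have no values, a summed marker level cannot be given, and the part of these tissues in the ribosomal protein values was not tested.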

How the data were processed

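RNA was extracted from stems with CTAB and made into Illumina libraries, per the labels' protocols. The submitters' processing notes name Bowtie2 and DESeq but neither a version nor a use. Genome build and counting were not given in the sources used here. A total of 8 tables of selected genes were deposited by the authors, with 1 normalised log2 value per group, the log2 change and the fold between groups, per the file headers. Of these, 6 hold genes selected by a moderated test between 2 groups and 2 by a one-way test over 3 temperatures, at a corrected p of 0.05 and a fold of at least 2 (in at least 1 pair for the 3 temperatures), per the file headers. The tables give no sample values, p-values or unselected genes, so no test was run and neither error, depth nor an interval can be given.

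Samples were grouped by title. Python 3.11.15 with pandas 2.3.3 was used to apply the description rule, count calls at a log2 difference of at least 1 and set them against all 11827 identifiers. The counting was tested on simulated data. The log2 fold change equalled the difference of the group values (largest deviation 1.2e-06), the fold was its power of 2 in 38299 of 38299 cases, and 10115 of 10115 values listed in more than 1 table were equal (tolerance 0.0001). The table labelled as E. grandis in elevated CO2 at 20 °C names E. globulus in its column header and was used as the header says. In the tables of 3 temperatures the 2-fold limit was applied to each pair. Members and gene lists were chosen with earlier results of these data known; plastid-genome names were marked after the values had been seen. Genes named are, per comparison, the 5 highest and 5 lowest changed members without a group at 0, the bacterial-type member, and members changed in both species or in at least 4 comparisons; the text names the rest as well. Alternatives were a 4-fold limit, no minimum fold, other member definitions and filters on low values.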

Additional observations from a re-analysis of the deposited data

How the results depend on the processing

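No paired analysis was possible because the columns carry 1 value per group and no replicate; for the same reason fits with a replicate left out were not run. Counts of members kept within 1.5 times their reported value in all settings not given here. With a 4-fold limit, E. globulus had 1 higher and 1 lower member at 10 °C, 1 higher at 30 °C, 2 higher and 0 lower at 30 against 10 °C, 0 higher and 1 lower at 10 °C with elevated CO2, 9 higher and 0 lower at 30 °C with elevated CO2, and 0 lower for CO2 alone. E. grandis had 1 lower at 10 °C with elevated CO2 and 1 lower (the 30S gene) and 0 higher at 30 °C with elevated CO2, so the count of 13 lower genes rests on the 2-fold limit. The species pair had 0 higher and 3 lower. Shares of all identifiers were not counted under this or the other settings, so these counts have no background beside them. With no minimum fold, E. globulus had 7 higher and 5 lower at 10 °C, 4 lower at 30 °C and 8 higher at 30 against 10 °C, and E. grandis had 1 higher at 30 °C. Without genes whose higher group was among the lowest values of its table (under the 25th percentile), 0 were higher in E. globulus at 10 °C. Keeping names by subunit or family gave 1 higher in E. globulus at 10 °C with elevated CO2 and 0 higher in E. grandis at 30 °C with elevated CO2.

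In settings chosen after seeing the data, keeping genes with the ribosome term gave 1 lower at 10 °C, 3 higher at 30 against 10 °C and 1 higher and 1 lower at 10 °C with elevated CO2 in E. globulus. It gave 0 lower at 10 °C, 0 higher at 30 against 10 °C, 1 lower at 10 °C with elevated CO2 and 0 higher at 30 °C with elevated CO2 in E. grandis. Without plastid-genome names, E. globulus had 1 higher at 10 °C, 1 lower at 10 °C with elevated CO2, 8 higher and 0 lower at 30 °C with elevated CO2 and 0 lower for CO2 alone, and the species pair had 4 lower. Sorting by subunit name gave 5 bacterial-type members, against 1 by words.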

Other observations

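Outside the description rule, 11 further genes carry the ontology term for a structural constituent of the ribosome. One of them, described as Ribosomal L22e protein family (Eucgr.H03939), was at 11.14 in the E. grandis control and 10.09 at 30 °C with elevated CO2, or 2.07-fold lower in the authors' deposited table. In E. globulus, L27e (Eucgr.E02322), a large-subunit protein, was at 8.31, 7.15 and 8.16 at 10, 20 and 30 °C, lowest in the control. R-protein L3 B (Eucgr.I02767), also of the large subunit, was at 10.97, 9.94 and 9.56, highest in the cold. A gene described only as a structural constituent of ribosome (Eucgr.L01887) was at 9.92, 10.25 and 11.33, highest in the heat. These genes were chosen after the descriptions had been seen. The 11 also hold L18p/L5e genes, called in both directions, and genes described as a protein of unknown function (DUF1666). The DUF1666 gene Eucgr.I01944 was at 2.17, 6.07 and 6.87 in E. globulus at 10, 20 and 30 °C, or 14.9-fold lower at 10 °C in the authors' deposited table. The term therefore also stands on genes whose description names no ribosomal protein.

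Some SUI1-family initiation factor genes were low in E. globulus both in the cold and in elevated CO2. Eucgr.F03466 was at 7.21 in the control, 4.77 at 10 °C, 4.39 at 10 °C with elevated CO2 and 3.81 at 20 °C with elevated CO2, and Eucgr.F03468 was at 8.49, 5.35, 5.29 and 5.97 in the same groups. Both were above 7 at 30 °C in ambient CO2, at 7.61 and 8.54.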
